A study of Mus musculus with 24 samples.

Results

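A set of 9 genes of the red cell lineage was followed across 24 RNA-seq libraries from mouse bone marrow. It holds the transcription factor genes Gata1 and Klf1, the carbonic anhydrase genes Car1 and Car2, the blood group and surface protein genes Rhd, Ermap and Cldn13, and the alpha globin genes Hba-a1 and Hba-a2. All 9 were chosen by name, with earlier results of these data known, and found by symbol among the 23991 genes of each library. The cells were sorted from C57BL/6 marrow as LSK cells, which lack lineage markers, carry Sca1 and cKit and hold the stem and multipotent progenitor cells, or as granulocyte-macrophage progenitors (GMP). Both populations were sampled in 4 genotypes, and every group holds 3 libraries. IRE1_KO_ITD mice carried floxed Ern1 with VavCre, a Cre driven in blood cells, together with Flt3-ITD, an internal tandem duplication that keeps the Flt3 receptor kinase active. ITD mice carried Flt3-ITD alone, IRE1_KO mice carried floxed Ern1 with VavCre alone, and WT mice were wild type. Ern1 encodes IRE1, a sensor of misfolded protein in the endoplasmic reticulum. The labels give no age and do not say whether the 3 libraries of a group came from separate mice. P-values therefore measure the spread between libraries, which may be partly technical, and wholly so in the ITD groups, whose libraries share the same sex.

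Red cells arise from progenitors that switch on Gata1, a zinc finger factor needed for red cell and megakaryocyte development, and then Klf1, a factor that turns on globin, membrane and blood group genes. Car1 is an early marker of the red cell lineage, Car2 is the other abundant cytosolic carbonic anhydrase of red cells, and alpha globin pairs with beta globin in haemoglobin. Rhd encodes the mouse Rh blood group antigen, Ermap an erythroid membrane-associated immunoglobulin-like protein and Cldn13 a claudin found in rodents. Neither sorted population is a committed red cell precursor. Fewer cells that express such genes and less RNA per cell cannot be told apart in bulk libraries.

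Upstream sequence was at hand for 6 of the 9 genes from RefSeq (build GRCm38.p6), and the 250 bases before each start were searched on both strands for AGATAA or TGATAA, forms of the site bound by GATA factors. The motif was found once in 5 of the 6 genes, Klf1, Rhd, Ermap, Hba-a1 and Hba-a2, and not in Gata1, against 16.6% of 32851 promoters of the same length. The stretches with a match are shown for reference, and which GATA factor, if any, binds them was not tested. Each has 51 bases, overlaps no annotated exon and has the motif in capitals, with TTATCA being TGATAA on the other strand.
Klf1, chr8:84901872-84901922, plus strand: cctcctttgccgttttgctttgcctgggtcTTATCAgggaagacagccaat
Rhd, chr4:134864463-134864513, plus strand: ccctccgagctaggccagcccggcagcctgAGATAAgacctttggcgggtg
Ermap, chr4:119190042-119190092, minus strand: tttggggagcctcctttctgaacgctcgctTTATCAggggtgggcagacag
Hba-a1, chr11:32283459-32283509, plus strand: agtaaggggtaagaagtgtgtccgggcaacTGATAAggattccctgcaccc
Hba-a2, chr11:32296276-32296326, plus strand: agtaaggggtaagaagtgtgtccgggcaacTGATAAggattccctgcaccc
The Hba-a1 and Hba-a2 stretches are identical, and over 247 aligned upstream bases the genes differed at 0 positions. Motif CCNCNCCC, a form of the CACCC box bound by KLF factors, matched 3 times upstream of Gata1 and in none of the other 5 genes, against 45.9% of all promoters with a match. CCAAT matched upstream of the same 5 genes as the GATA letters, against 33.8% of all promoters. A match is a string of letters and not evidence of binding.

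The libraries had 10436 to 11471 genes at 1 FPKM (fragments scaled by transcript length and by the number of mapped fragments) or more, and their read depth is unknown. Markers fitted the sort: of 16 granulocyte-macrophage progenitor genes, 11 were higher in every GMP library than in any LSK library, and of 19 stem and multipotent progenitor genes, 14 were higher in every LSK library. Ern1 was not lower in the libraries labelled with its deletion: it had 6.64 to 8.71 FPKM in IRE1_KO LSK and 3.73 to 4.74 FPKM in WT LSK, and 17.9 to 24.5 FPKM in IRE1_KO GMP and 7.58 to 10.4 FPKM in WT GMP. With Flt3-ITD, Flt3 itself had 53.2 to 58.7 FPKM in ITD LSK cells and 144 to 161 FPKM in WT LSK cells, and 13.5 to 32.7 FPKM in ITD GMP and 4.54 to 12.8 FPKM in WT GMP. Since the files give no exon or junction values, these levels test neither allele, and genotypes are given here as labelled. The 3 IRE1_KO LSK libraries alone carry a 1ng tag in their labels, so that tag and the genotype cannot be told apart in LSK cells. By Xist and Y-linked transcripts the 6 ITD libraries were female, while each of the other genotypes had libraries of both sexes in both populations. Groups with both sexes hold more than 1 mouse, and for the ITD groups this stays unknown.

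Gata1, on chromosome X at positions 7959260 to 7978071 (minus strand, GRCm38), was lower in every library with Flt3-ITD than in any without it, in both populations. In LSK cells Gata1 had 0.880, 1.44 and 2.54 FPKM in the ITD libraries, against 16.1, 8.26 and 9.34 FPKM in WT. Its level in GMP was 0.121, 1.07 and 0.860 FPKM in ITD, against 5.31, 5.55 and 4.05 FPKM in WT. The log2 difference of FPKM + 1 between ITD and WT was -2.22 ± 0.28 in LSK cells (SE, adjusted p = 0.000831) and -1.87 ± 0.23 in GMP (adjusted p = 0.00105). With floxed Ern1 and VavCre on both sides, Gata1 had 1.03, 1.25 and 0.867 FPKM in IRE1_KO_ITD LSK cells, against 14.9, 8.98 and 10.2 FPKM in IRE1_KO. In GMP it had 0.161, 0.122 and 0.484 FPKM in IRE1_KO_ITD, against 5.43, 7.34 and 6.06 FPKM in IRE1_KO. Here too no library of one genotype reached the range of the other, with differences of -2.57 ± 0.28 in LSK cells (adjusted p = 7.93e-05) and -2.54 ± 0.23 in GMP (adjusted p = 0.000171). With sex as a covariate the ITD against WT difference of Gata1 was -2.22 in LSK cells (adjusted p = 0.00604) and -1.90 in GMP (adjusted p = 0.0098).

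Klf1, on chromosome 8 at 84901928 to 84905291, followed Gata1 with even lower values. It was under 1 FPKM in all 12 libraries with Flt3-ITD. ITD LSK cells had 0.209, 0.684 and 0.942 FPKM of Klf1, against 21.0, 5.30 and 5.07 FPKM in WT LSK cells. The WT LSK libraries were uneven, with replicate 1 far above the other two, yet the lowest WT library was well above the highest ITD library. In GMP the WT libraries lay close together, at 4.76, 4.45 and 5.17 FPKM, and the ITD libraries had 0.176, 0.258 and 0.187 FPKM. The ITD minus WT difference was -2.58 ± 0.43 in LSK cells (adjusted p = 0.00289) and -2.26 ± 0.11 in GMP (adjusted p = 1.09e-05). Klf1 had the smallest standard error of the 9 genes in GMP. Between IRE1_KO_ITD and IRE1_KO it fell by 3.08 ± 0.43 in LSK cells (adjusted p = 0.000381) and by 2.30 ± 0.11 in GMP (adjusted p = 4.54e-06), with 0.0666 to 0.274 FPKM in IRE1_KO_ITD GMP and 4.51 to 5.40 FPKM in IRE1_KO GMP.

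Car1, on chromosome 3 at 14766216 to 14808368, had the widest difference of log2(FPKM + 1) outside the globins in the comparisons of ITD with WT and of IRE1_KO_ITD with IRE1_KO. Its level in LSK cells was 0.630, 3.90 and 4.09 FPKM in ITD, against 174.8, 30.7 and 39.7 FPKM in WT. In GMP it was 0.502, 0.850 and 1.06 FPKM in ITD, against 22.95, 33.9 and 31.2 FPKM in WT. The mean in ITD was 0.0352 of the WT mean in LSK cells and 0.0274 in GMP, while by this ratio Cldn13 was lower in both (0.0254 in LSK cells and 0.0213 in GMP). In IRE1_KO_ITD cells Car1 was close to 0. IRE1_KO_ITD LSK cells had 0.154, 0.0354 and 0.113 FPKM, against 95.6, 76.2 and 49.9 FPKM in IRE1_KO. IRE1_KO_ITD GMP had 0.0301 FPKM in replicate 2 and were listed at 0 in the other 2 libraries, against 25.7, 50.9 and 28.6 FPKM in IRE1_KO. These differences were -6.04 ± 0.60 in LSK cells (adjusted p = 5.38e-05) and -5.09 ± 0.24 in GMP (adjusted p = 4.54e-06). The Car1 span also covers a processed pseudogene, Gm16399, on the same strand.

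Car2, on the same chromosome at 14886273 to 14900770, behaved differently by population. In GMP it fell with the others: ITD had 5.79, 5.06 and 3.90 FPKM, against 41.1, 51.5 and 49.99 FPKM in WT, a difference of -3.04 ± 0.20 (adjusted p = 3.06e-05). In LSK cells Car2 stayed abundant in every genotype, and ITD had 256, 115 and 86.0 FPKM, against 395, 423 and 445 FPKM in WT. The ranges did not overlap, and the difference was -1.62 ± 0.31 (adjusted p = 0.0055). IRE1_KO_ITD LSK cells had 215, 264 and 242 FPKM and IRE1_KO 386, 494 and 522 FPKM. That difference of -0.95 ± 0.31 passed narrowly (adjusted p = 0.0374) and did not pass without any 1 of the 3 IRE1_KO_ITD libraries (adjusted p between 0.0609 and 0.11), without IRE1_KO replicate 2 (0.0988) or replicate 3 (0.101). It also did not pass with no filter (0.0763), quantile normalization (0.0553), the replicate block (0.0574) or sex as a covariate (0.0682). Between IRE1_KO_ITD and IRE1_KO in GMP, Car2 fell by 2.54 ± 0.20 (adjusted p = 7.63e-05).

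The blood group and surface protein genes were near or at 0 with Flt3-ITD. Rhd, on chromosome 4 at 134864536 to 134896172, had 0.133, 0.215 and 0.327 FPKM in ITD LSK cells, against 12.8, 5.12 and 4.63 FPKM in WT. In IRE1_KO_ITD LSK cells it had 0.023, 0.0531 and 0.0212 FPKM, against 9.60, 7.28 and 6.28 FPKM in IRE1_KO. Rhd therefore gave non-overlapping ranges in both pairs, with differences of -2.67 ± 0.29 for ITD against WT (adjusted p = 0.000361) and -3.06 ± 0.29 for IRE1_KO_ITD against IRE1_KO (adjusted p = 4.06e-05). In GMP these were -2.19 ± 0.17 (adjusted p = 0.000124) and -2.35 ± 0.17 (adjusted p = 5.61e-05). Ermap, on the same chromosome at 119175457 to 119190011, had 0.0187, 0.246 and 0.183 FPKM in ITD LSK cells, against 6.32, 1.44 and 2.57 FPKM in WT. It was listed at 0 in all 3 IRE1_KO_ITD GMP libraries, against 1.60, 3.70 and 1.26 FPKM in IRE1_KO. Cldn13, on chromosome 5 at 134914249 to 134915526, was listed at 0 in all 6 IRE1_KO_ITD libraries and in replicate 1 of ITD in both populations. The other 2 ITD LSK libraries had 0.326 and 0.211 FPKM, against 13.1, 4.78 and 3.23 FPKM in WT, and the other 2 ITD GMP libraries had 0.216 and 0.108 FPKM, against 5.45, 4.72 and 5.06 FPKM in WT. Ermap fell by 1.80 ± 0.31 in LSK cells and by 1.41 ± 0.23 in GMP between ITD and WT, while Cldn13 fell by 2.58 ± 0.38 in LSK cells and fell by 2.46 ± 0.16 in GMP (adjusted p between 3.06e-05 and 0.00506 for these 4). Klf1, Rhd, Ermap and Cldn13 reached 1 FPKM only in IRE1_KO and WT libraries, so they entered the tests through those groups. In GMP, Gata1 and Car1 reached it with Flt3-ITD in 1 ITD library each.

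**Figure D1:**
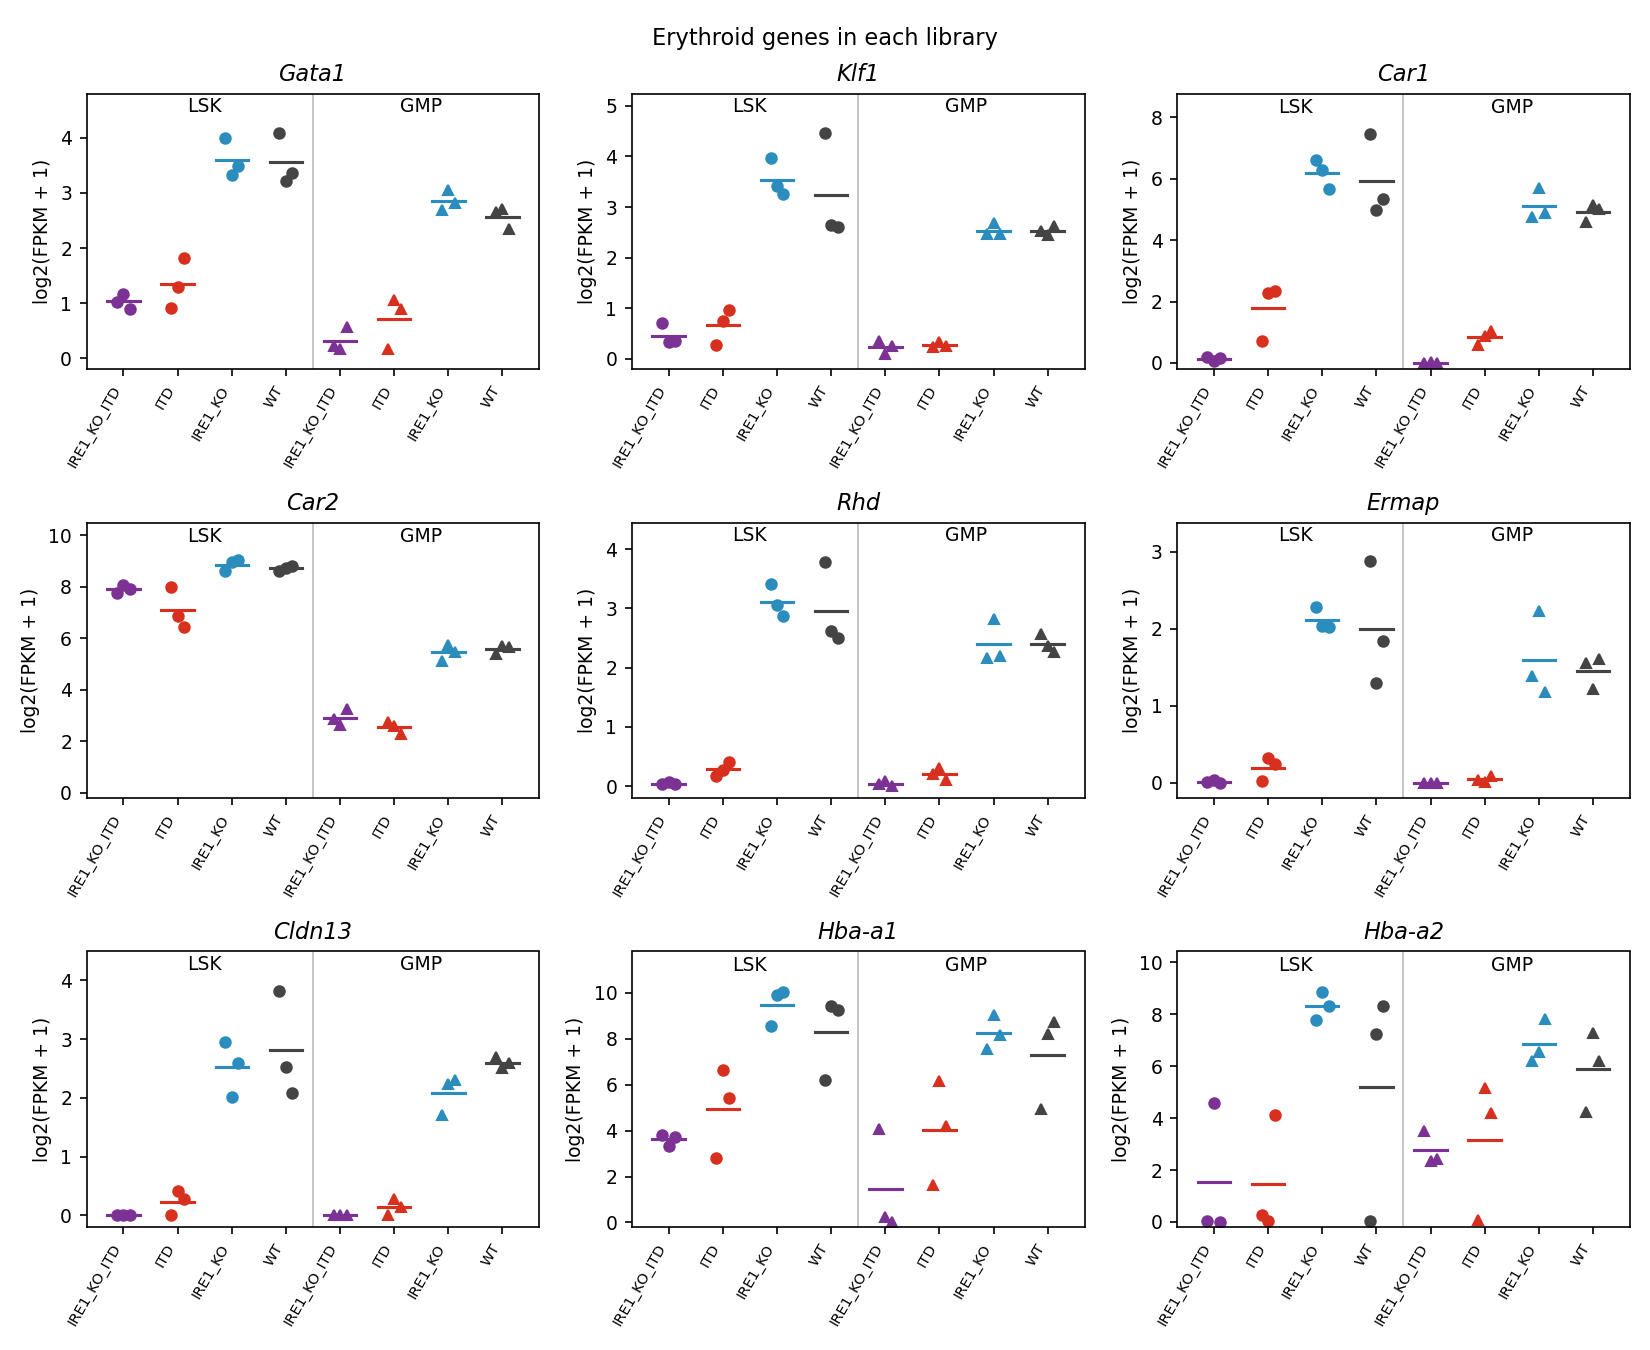
Level of each of the 9 erythroid genes as log2(FPKM + 1) in each library, with LSK cells (circles) left and GMP (triangles) right in every panel. Points are the 3 libraries of a genotype, in replicate order from left to right, and bars their mean. Gata1, Klf1, Car1, Rhd, Ermap and Cldn13 are at most 4.09 FPKM in IRE1_KO_ITD and ITD, and Car2 stays at 86.0 FPKM or more in all LSK libraries.

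The alpha globins, on chromosome 11 at 32283511 to 32284465 (Hba-a1) and 32296489 to 32297298 (Hba-a2), were the least even of the 9 genes between libraries, and Hba-a1 reached the highest level, 1040.1 FPKM in an IRE1_KO LSK library. Their coding sequences of 429 bases differ at 1 position, so the split of reads between the copies is uncertain, and their sum is the safer value. Hba-a2 was at 0.0176 FPKM in WT LSK replicate 1, where Hba-a1 had 71.3 FPKM. The sum in LSK cells was 6.18, 99.7 and 57.7 FPKM in ITD, against 71.4, 834 and 917 FPKM in WT. In GMP it was 2.14, 105.7 and 34.9 FPKM in ITD, against 47.1, 450.2 and 494.7 FPKM in WT. The ranges overlapped in both populations, through WT replicate 1. The difference of the sum was -3.45 ± 1.08 in LSK cells (adjusted p = 0.0425) and -3.27 ± 1.27 in GMP (adjusted p = 0.118). The sum was fitted with all libraries only, so how far its calls depend on a single library was not tested. Hba-a1 alone gave -3.32 ± 0.99 in LSK cells (adjusted p = 0.0353), and this call did not hold without ITD LSK replicate 1 (adjusted p = 0.09), ITD replicate 3 (0.0677), WT replicate 2 (0.134) or WT replicate 3 (0.0993). The call was also lost with no filter (0.0709), only the libraries compared (0.101), sex as a covariate (0.126) and without the 1ng libraries (0.0545). Hba-a2 gave -3.73 ± 2.01 (adjusted p = 0.207), and -6.31 (adjusted p = 0.0181) without WT LSK replicate 1.

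Between IRE1_KO_ITD and IRE1_KO the alpha globin ranges were apart. The sum was 13.0, 32.0 and 12.3 FPKM in IRE1_KO_ITD LSK cells, against 587, 1403 and 1358 FPKM in IRE1_KO. In GMP it was 26.2, 4.29 and 4.31 FPKM, against 256.7, 618 and 509 FPKM in IRE1_KO. The sum fell by 5.82 ± 1.08 in LSK cells (adjusted p = 0.00222) and fell by 5.57 ± 1.27 in GMP (adjusted p = 0.0181). The single copies also passed, Hba-a2 narrowly in GMP (adjusted p = 0.0441), where it did not pass without any 1 of the 6 libraries (adjusted p between 0.0755 and 0.146). In LSK cells Hba-a2 (adjusted p = 0.0258) did not pass without IRE1_KO_ITD replicate 1 or 3 or without any 1 IRE1_KO library (adjusted p between 0.0514 and 0.0889).

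Beta globin, the partner chain, was at 216 FPKM or more in every LSK library with Flt3-ITD. The sum of Hbb-b1 and Hbb-b2 was 773, 861 and 1337 FPKM in IRE1_KO_ITD LSK cells, against 944, 1811 and 1727 FPKM in IRE1_KO. ITD LSK cells had 1229.9, 276 and 216 FPKM, against 316, 1452 and 1507 FPKM in WT. Both pairs overlapped, though 2 of the 3 ITD libraries lay below every WT library and Hbb-b1 by itself did not overlap, at 283 to 486 FPKM in IRE1_KO_ITD LSK cells and 493 to 1004.5 FPKM in IRE1_KO. In GMP the sums were apart, at 71.6 to 138 FPKM in IRE1_KO_ITD and 357 to 843 FPKM in IRE1_KO. Neither beta gene passed the test in any of the 4 comparisons of Flt3-ITD (for Hbb-b1, adjusted p = 0.217 for ITD against WT in LSK cells). The ratio of the alpha to the beta sum was 0.0169, 0.0372 and 0.00919 in IRE1_KO_ITD LSK cells, against 0.622, 0.775 and 0.787 in IRE1_KO. In ITD LSK cells the ratio was 0.00502, 0.361 and 0.267, and in WT it was 0.226, 0.575 and 0.609. The libraries with the lowest ratios also had more Hbb-b2 than Hbb-b1: Hbb-b2 was 1.73 to 1.75 times Hbb-b1 in IRE1_KO_ITD LSK cells and 0.798 to 0.916 times in IRE1_KO. In ITD replicate 1 it was 1.81 times in LSK cells and 1.77 times in GMP. The beta genes are near-identical copies as well, and what moves the ratios was not tested.

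**Figure D2:**
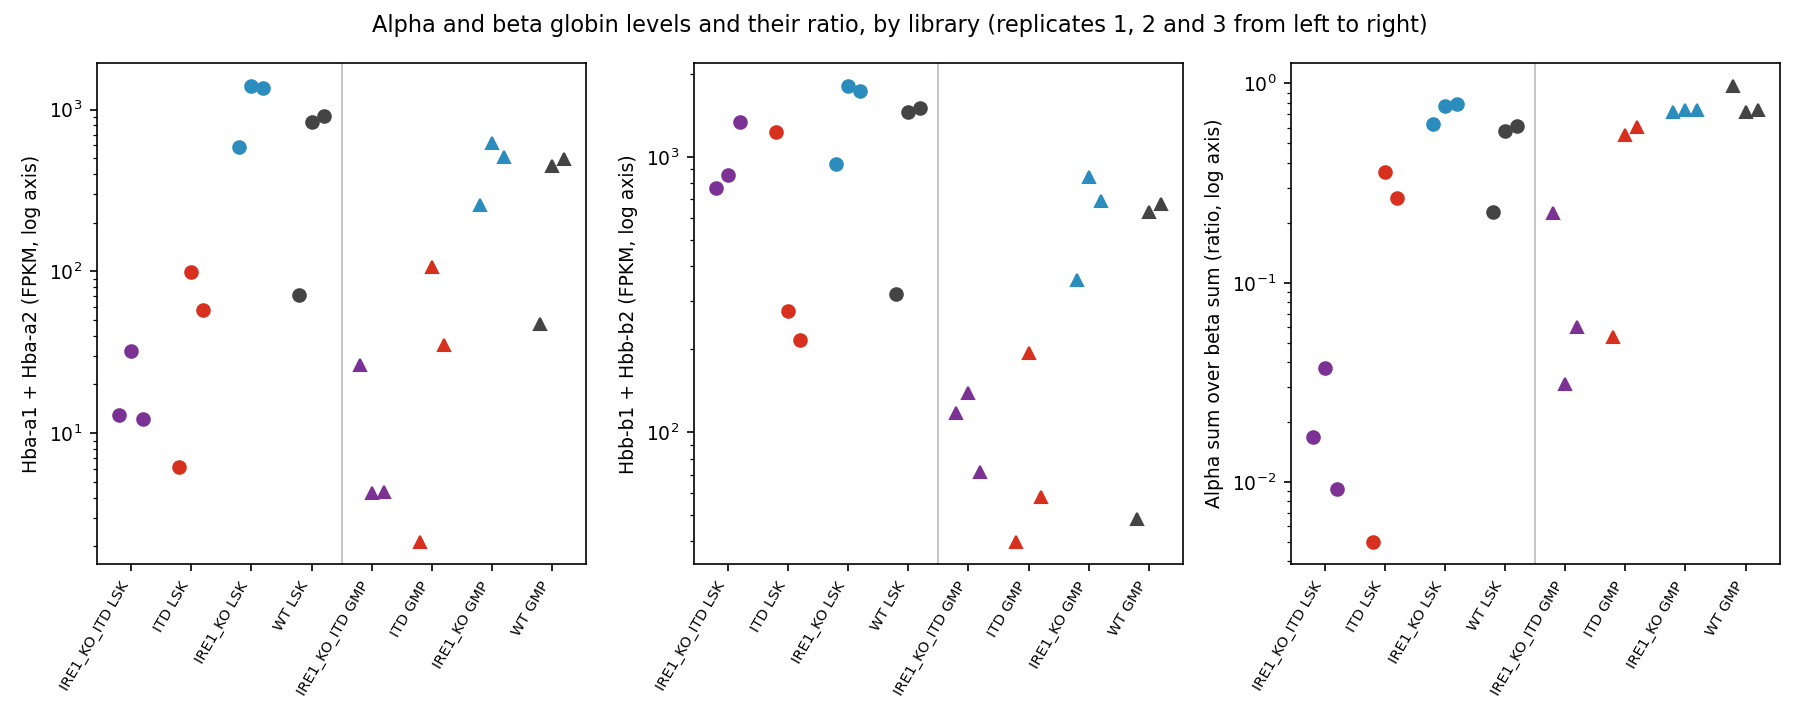
Sum of the alpha globins, sum of the beta globins (both FPKM) and their ratio in each library, all on log axes, with the 3 libraries of a group from left to right. Beta globin reaches 1337 FPKM in IRE1_KO_ITD LSK cells, where alpha globin does not exceed 32.0 FPKM.

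Alpha globin and the other red cell genes were lowest in the same library in 6 of the 8 groups, and differed in WT LSK and IRE1_KO LSK cells. Gata1, Klf1, Car1, Rhd, Ermap and Cldn13 together came to 244 FPKM in WT LSK replicate 1, against 55.6 and 64.6 FPKM in replicates 2 and 3. Car1 alone made up 174.8, 30.7 and 39.7 FPKM of these, so the sum mostly reflects Car1 there. In WT LSK replicate 1 the alpha globin sum was 71.4 FPKM, the lowest of the WT LSK libraries. Alas2, the red cell form of the first enzyme of haem synthesis, was 0.424 FPKM there, against 6.76 and 7.97 FPKM in the others. Replicate 1 had the lowest alpha globin sum in 6 of the 8 groups, all but the 2 of IRE1_KO_ITD, and the lowest sum of the 6 other genes in 4. After group means were removed, the 6 genes correlated with each other at Pearson r of 0.54 to 0.88 over the 24 libraries, which share a scale. Hba-a2 correlated with them at -0.57 to 0.04 and Hba-a1 at -0.32 to 0.03. WT LSK replicate 1 was the highest of its group for each of the 6 genes, and no value of these correlations without it is given. The alpha globin sum and the 6-gene sum had r = 0.099 over 24 libraries and r = 0.62 without WT LSK replicate 1, so that library sets this value.

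**Figure D3:**
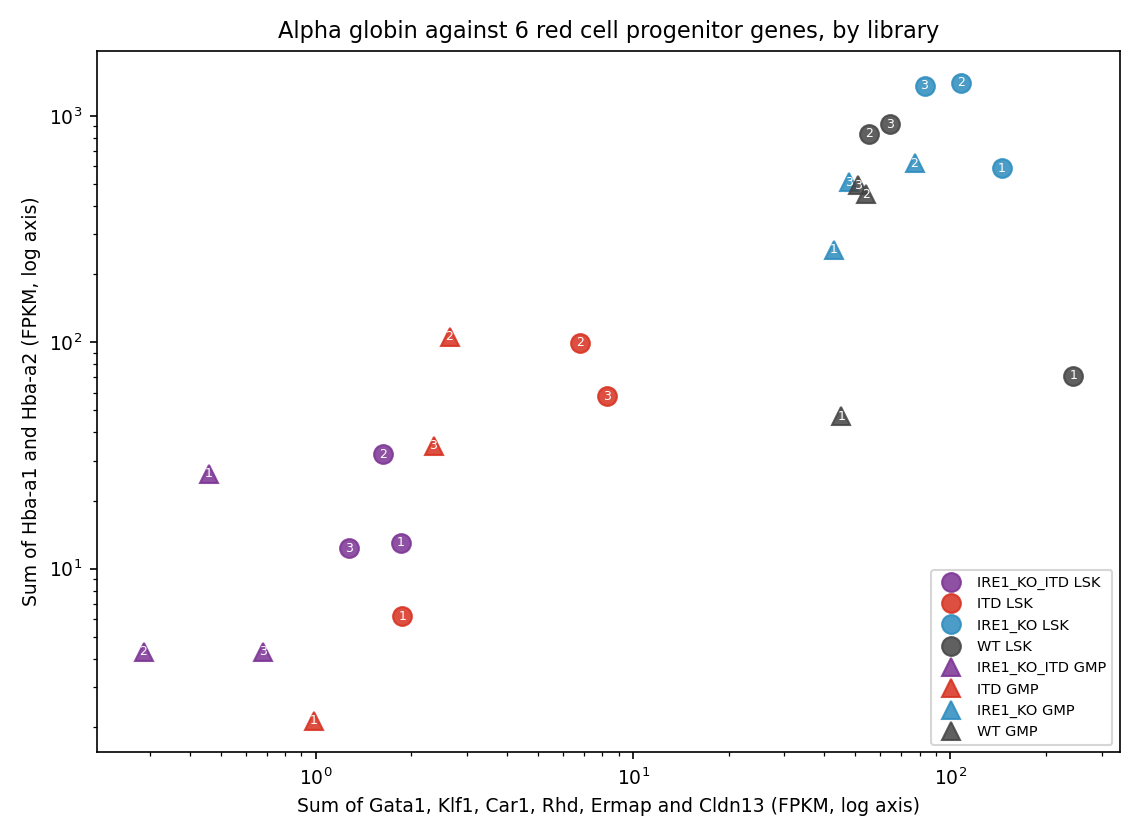
Sum of Hba-a1 and Hba-a2 against the sum of the 6 other red cell genes (both FPKM, log axes) in each library, with the replicate number inside the point. Libraries with Flt3-ITD have 6-gene sums of at most 8.30 FPKM, while those without have at least 43.0 FPKM, and WT LSK replicate 1 stands apart at 244 FPKM with little alpha globin.

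Across the 9 genes, ITD against WT called 8 lower and 0 higher in LSK cells, where 7.27% of the 11955 genes tested were lower at an adjusted p under 0.05. In GMP 7 were lower and 0 higher, against 3.32% of 11249 genes. IRE1_KO_ITD and IRE1_KO share no library with the first pair, but were fitted together with it under a shared estimate of the spread. Between these 2 genotypes all 9 were lower in LSK cells (19.6% of genes) and in GMP (4.5%). Without any 1 library of the comparison these counts were 7 to 8 in LSK cells and 8 in GMP, with Car2, Hba-a2 or both lost in LSK cells and Hba-a2 in GMP. Genes that passed the filter mainly through libraries without Flt3-ITD are among those counted. The 9 were also chosen with earlier results of these data known, so the counts are a description. IRE1_KO_ITD against WT called 7 lower in LSK cells (12.9%) and 8 in GMP (5.87%). The median difference over the 9 genes was -2.58 for ITD against WT and -3.06 for IRE1_KO_ITD against IRE1_KO in LSK cells, beside medians over all genes of 0.08 and -0.04. In GMP these medians were -2.46 and -2.54, beside 0.07 and 0.08. Ranges that did not overlap were found for 7 of the 9 genes for ITD against WT, in LSK cells (13.5% of genes, lower) and in GMP (12.5%). For IRE1_KO_ITD against IRE1_KO they were found for 9 in LSK cells (26.8%) and 9 in GMP (10.5%).

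In the libraries labelled with the Ern1 deletion alone, none of the 9 genes passed the threshold. IRE1_KO against WT called 0 of 9 in LSK cells, where 23.7% of genes were called in either direction, and 0 of 9 in GMP, where 0.533% were. In limma at an unadjusted p under 0.05 there were 0 of 9 in LSK cells and 1 of 9, Cldn13, in GMP (-0.52 ± 0.16, adjusted p = 0.257), against 34.9% of all genes in LSK cells and 12.01% in GMP. Gata1 differed by 0.04 ± 0.28 in LSK cells and by 0.29 ± 0.23 in GMP, and Klf1 by 0.30 ± 0.43 and 0.00 ± 0.11. The widest difference was that of Hba-a2 in LSK cells (3.13 ± 2.01, adjusted p = 0.31). Without WT LSK replicate 1 the count in LSK cells was 2, with Klf1 at 0.91 (adjusted p = 0.0272) and Rhd at 0.55 (adjusted p = 0.0368), both higher in IRE1_KO. These LSK values carry the 1ng tag on one side.

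Among libraries with Flt3-ITD, IRE1_KO_ITD against ITD also called 0 of 9 genes in LSK cells (20.2% of genes called) and 0 of 9 in GMP (1.83%). Car1 came nearest: its ranges did not overlap in either population (16.4% of genes were lower without overlap in LSK cells and 5.49% in GMP), with 0.0354 to 0.154 FPKM in IRE1_KO_ITD LSK cells against 0.630 to 4.09 FPKM in ITD. The difference was -1.64 ± 0.60 in LSK cells (adjusted p = 0.0788) and -0.83 ± 0.24 in GMP (adjusted p = 0.112). With a pseudocount of 0.1, which weighs low values more, Car1 was -3.57 in LSK cells (adjusted p = 0.0083) and -3.0 in GMP (adjusted p = 0.00203). Without ITD LSK replicate 1 it was -2.18 in LSK cells (adjusted p = 0.028). Rhd ranges did not overlap either, at 0.0212 to 0.0531 FPKM in IRE1_KO_ITD LSK cells and 0.133 to 0.327 FPKM in ITD (-0.24 ± 0.29, adjusted p = 0.594), and with a pseudocount of 0.1 Rhd was -1.26 (adjusted p = 0.0414). In GMP the ranges of Rhd and Ermap did not overlap either (-0.16 ± 0.17 and -0.04 ± 0.23). Hba-a1 in GMP differed by -2.56 ± 1.39 (adjusted p = 0.359). Below 1 FPKM such differences are compressed on this scale. Car2 pointed the other way in LSK cells (0.81 ± 0.31, adjusted p = 0.0895), and without ITD LSK replicate 1 it was 1.26 (adjusted p = 0.000699).

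The interaction of Flt3-ITD with Ern1 deletion, which asks whether the effect of Flt3-ITD differs with and without Ern1, called 0 of 9 genes in LSK cells (6.94% of genes called). In GMP it called 0 of 9, and 0 of all 11249 genes in limma, where 1468 genes, Car1 among them as 1 of the 9, had an unadjusted p under 0.05. Of the 18 values of Gata1, Klf1, Car1, Rhd, Ermap and Cldn13 in each group, most were under 1 FPKM with Flt3-ITD. These were 14 in ITD and 16 in IRE1_KO_ITD LSK cells, and 16 in ITD and 18 in IRE1_KO_ITD GMP. Differences between such low values are compressed on this scale, so 0 calls for these genes do not show that the interaction is absent. The Car1 interaction was -1.89 ± 0.85 in LSK cells (adjusted p = 0.192) and -1.03 ± 0.34 in GMP (adjusted p = 0.289). In LSK cells it was -2.66 (adjusted p = 0.0333) without WT LSK replicate 1, and without ITD LSK replicate 1 the interaction called 1 gene, Car2.

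**Figure D4:**
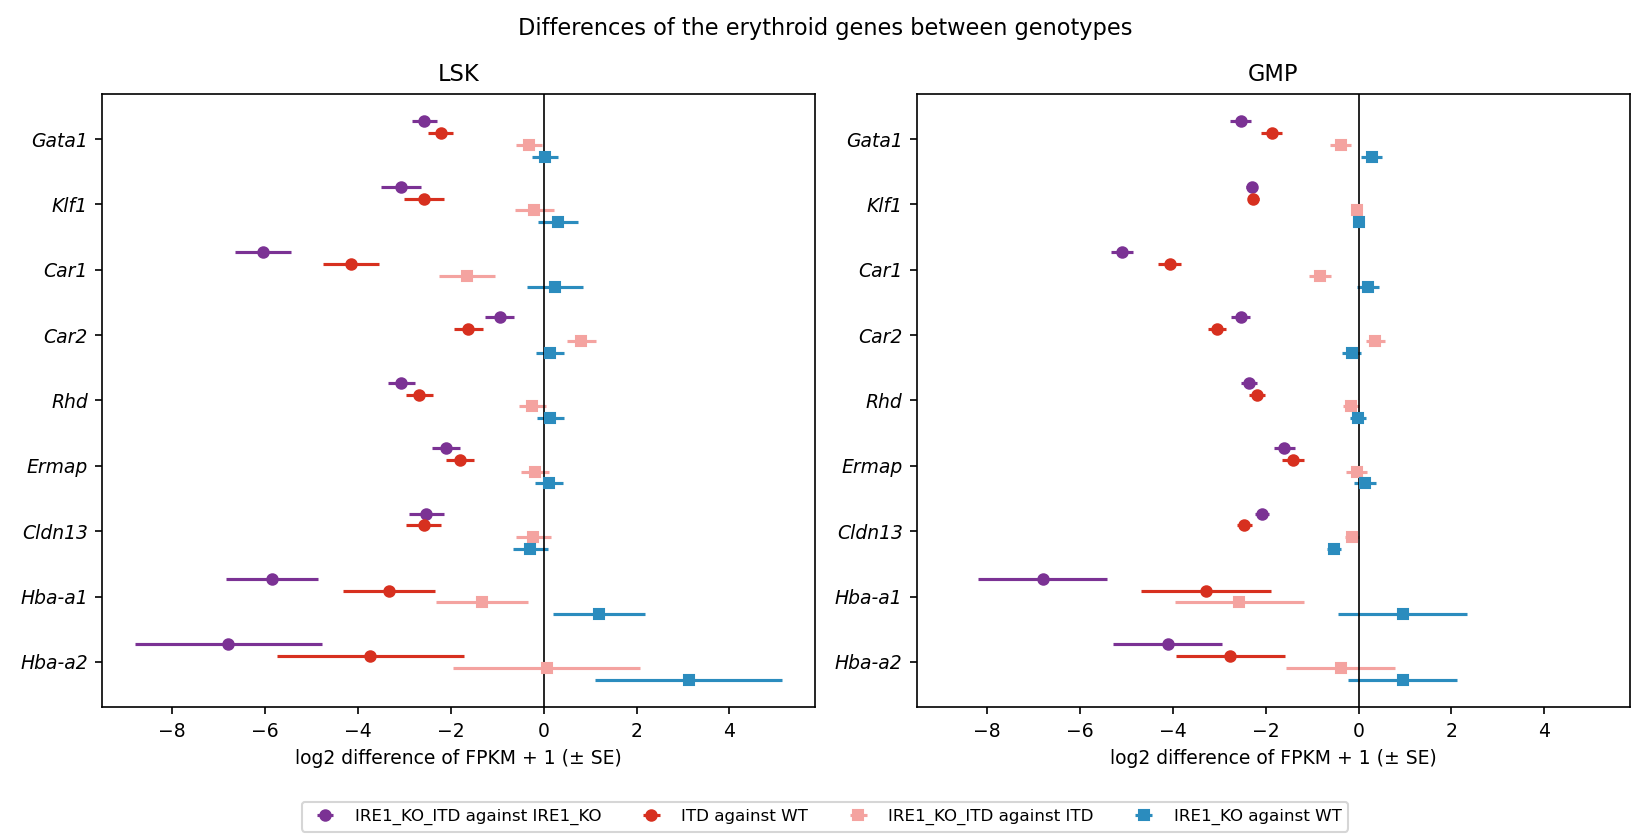
Difference of log2(FPKM + 1) with its standard error for each of the 9 genes in LSK cells (left) and GMP (right). Circles compare genotypes with and without Flt3-ITD and lie left of 0 for every gene, while squares compare genotypes with and without Ern1 and lie on both sides of 0, from -2.56 for Hba-a1 in GMP to 3.13 for Hba-a2 in LSK cells.

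In WT cells GMP against LSK called Gata1 and Car2 lower and 0 of 9 higher (31.3% of the 12348 genes tested were lower). Gata1 had 5.31, 5.55 and 4.05 FPKM in WT GMP and 16.1, 8.26 and 9.34 FPKM in WT LSK (-0.99 ± 0.26, adjusted p = 0.00432). The fall of Car2 was 3.13 ± 0.27 (adjusted p = 2.7e-08). The count was 6 without WT LSK replicate 2 and 4 without replicate 3, and 1 with a pseudocount of 0.1, where Gata1 did not pass (adjusted p = 0.0701). In ITD cells only Car2 was lower in GMP (-4.55 ± 0.27, adjusted p = 1.13e-09; 26.8% of genes lower). The ITD libraries of the 2 populations deviate together by replicate number, and a fit of those 6 libraries with that number as a block called 2 genes, adding Hba-a1 (-0.95, adjusted p = 0.0287); 5 of the 9 genes passed the filter on low values there. The count in ITD was also 2 without ITD GMP replicate 2 and 3 without ITD LSK replicate 1. The effect of Flt3-ITD in GMP minus that in LSK cells passed for Car2 alone (-1.42 ± 0.39, adjusted p = 0.023; 7.1% of genes lower). It did not pass without ITD GMP replicate 3, WT GMP replicate 2, WT GMP replicate 3 or WT LSK replicate 2 (adjusted p between 0.0513 and 0.055). For Gata1, Klf1, Car1, Rhd, Ermap and Cldn13 that difference lay between 0.08 and 0.48, with adjusted p of 0.362 or more. Of their 18 values, 14 in ITD LSK cells and 16 in ITD GMP were under 1 FPKM, where the scale compresses differences.

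The order of the 8 group means was alike for most genes. IRE1_KO LSK or WT LSK came first, then IRE1_KO GMP and WT GMP, and the 4 groups with Flt3-ITD last, for Gata1, Klf1, Car1, Rhd and Ermap. The ranges of IRE1_KO LSK and WT LSK overlapped for all 5, as did those of IRE1_KO GMP and WT GMP. The step from the lowest of the groups without Flt3-ITD, WT GMP, to the next, ITD LSK, was free of overlap for these 5. The means of Hba-a1 and Hba-a2 followed the same order of groups, but their ranges overlapped at every step. Car2 was ordered by population instead, with all 4 LSK groups above all 4 GMP groups. Over the 8 group means of log2(FPKM + 1), the 6 genes other than Car2 and the globins correlated with each other at Pearson r of 0.95 or more and with Car2 at 0.49 to 0.68. These points share libraries and a scale, and mostly separate 2 levels.

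Among 12348 genes the pattern nearest to Klf1 over the 8 group means was that of Slc38a5 (r = 0.998), followed by Ermap, Ces2g, Rhd and Ms4a1 (0.995 to 0.997). Nearest to Gata1 were Mzb1 and Mfsd2b (0.989 and 0.988), Klf1, Blnk and Ermap. Nearest to Car1 were Cd79a (0.996), Vpreb1, Mzb1, Vpreb2 and Rhd. Slc38a5 encodes an amino acid transporter and was listed at 0 in all 6 IRE1_KO_ITD libraries, with a mean of 4.26 ± 1.2 FPKM in IRE1_KO LSK cells (SD, n = 3). Ms4a1, Cd79a, Blnk, Vpreb1 and Vpreb2 are genes of the B cell lineage.

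Other genes of the red cell programme were counted by role, leaving out the 9, in lists also chosen with earlier results of these data known. Of all genes tested, ITD against WT called 7.27% lower and 14.9% higher in LSK cells and 3.32% lower and 7.37% higher in GMP, and IRE1_KO_ITD against IRE1_KO called 19.6% lower and 11.7% higher in LSK cells and 4.5% lower and 8.47% higher in GMP. Of 23 tested genes known from early erythroid progenitors, ITD against WT in LSK cells called 16 lower and 0 higher, and IRE1_KO_ITD against IRE1_KO called 17 lower and 0 higher. In GMP these counts were 9 lower and 0 higher of 19, and 10 lower and 1 higher of 19. With members of the 9 included, 26 of the 29 genes on this list reached 1 FPKM in all 3 WT LSK libraries and 17 in all 3 ITD LSK libraries. In GMP these were 24 and 13. This list and the others hold genes that entered the tests mainly through libraries without Flt3-ITD, for which a higher call was unlikely. The erythropoietin receptor gene Epor had 0.492, 0.348 and 0.301 FPKM in ITD LSK cells, against 9.02, 3.37 and 3.94 FPKM in WT (-2.12 ± 0.30, adjusted p = 0.00141). Epor and Alas2 are named here after their values were seen. Of the 4 most abundant of these progenitor genes, Cd24a fell by 0.53 ± 0.13 in LSK cells (adjusted p = 0.0159), while Atpif1, Prdx2 and Tmem14c did not pass (0.26 ± 0.11, -0.15 ± 0.10 and 0.24 ± 0.12).

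Of 13 tested erythroid transcription factor genes, ITD against WT in LSK cells called 7 lower and 0 higher, and IRE1_KO_ITD against IRE1_KO the same counts. They include Lmo2 and Ldb1, whose products bridge GATA factors to their partners on DNA. Lmo2 averaged 112 ± 5.0 FPKM in ITD LSK cells and 211 ± 33 FPKM in WT (SD, n = 3 each; -0.90 ± 0.14, adjusted p = 0.00207). Ldb1 averaged 17.4 ± 0.70 FPKM in ITD and 25.6 ± 4.2 FPKM in WT (-0.52 ± 0.14, adjusted p = 0.0246). Both were called higher in IRE1_KO than in WT LSK cells, by 1.01 ± 0.14 for Lmo2 (adjusted p = 0.000272) and 1.18 ± 0.14 for Ldb1 (adjusted p = 0.000113). The 1ng tag is on the IRE1_KO side. Of the 9 genes 0 were called in that comparison, though only 1 had a difference below 0. Of the 13, IRE1_KO against WT called 6 higher and 0 lower (4 and 0 with either other scaling), where 21.0% of all genes were higher and the median difference of all genes was 0.14. In GMP ITD against WT called 1 higher and 2 lower of 12. Nfe2 did not pass in LSK cells (-0.18 ± 0.11, adjusted p = 0.261).

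Of 13 haem synthesis genes 1, Urod, was lower for ITD against WT in LSK cells (-0.39 ± 0.10, adjusted p = 0.0233) and in GMP (-0.28 ± 0.06, adjusted p = 0.0216), and 0 were higher. With size factors as scaling 4 were lower in GMP. Alas1, the widely used form of the first enzyme, did not pass in either (0.53 ± 0.21 in LSK cells and -0.46 ± 0.14 in GMP). Alas2, the red cell form, had 0.201, 0.715 and 0.566 FPKM in ITD LSK cells, against 0.424, 6.76 and 7.97 FPKM in WT, and these ranges overlapped. It had 0.0803 to 0.373 FPKM in IRE1_KO_ITD LSK cells, against 4.06 to 9.81 FPKM in IRE1_KO. In GMP these ranges were 0.0848 to 0.334 FPKM and 1.70 to 5.81 FPKM. Of 12 iron and erythropoietin receptor genes, 3 were higher and 2 lower in LSK cells, and 1 higher and 1 lower in GMP. Tfrc, the transferrin receptor through which red cell precursors take up iron, was higher in LSK cells with 24.6 ± 1.1 FPKM in ITD and 10.3 ± 1.7 FPKM in WT (1.18 ± 0.19, adjusted p = 0.00275). It did not pass in GMP (-0.07 ± 0.31, adjusted p = 0.901). Of 19 membrane and blood group genes, ITD against WT in LSK cells called 7 lower and 1 higher, and in GMP 4 lower and 1 higher of 15. The most abundant of them, Cd47, Cd44, Stom and Gypc, did not pass in either population.

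**Figure D5:**
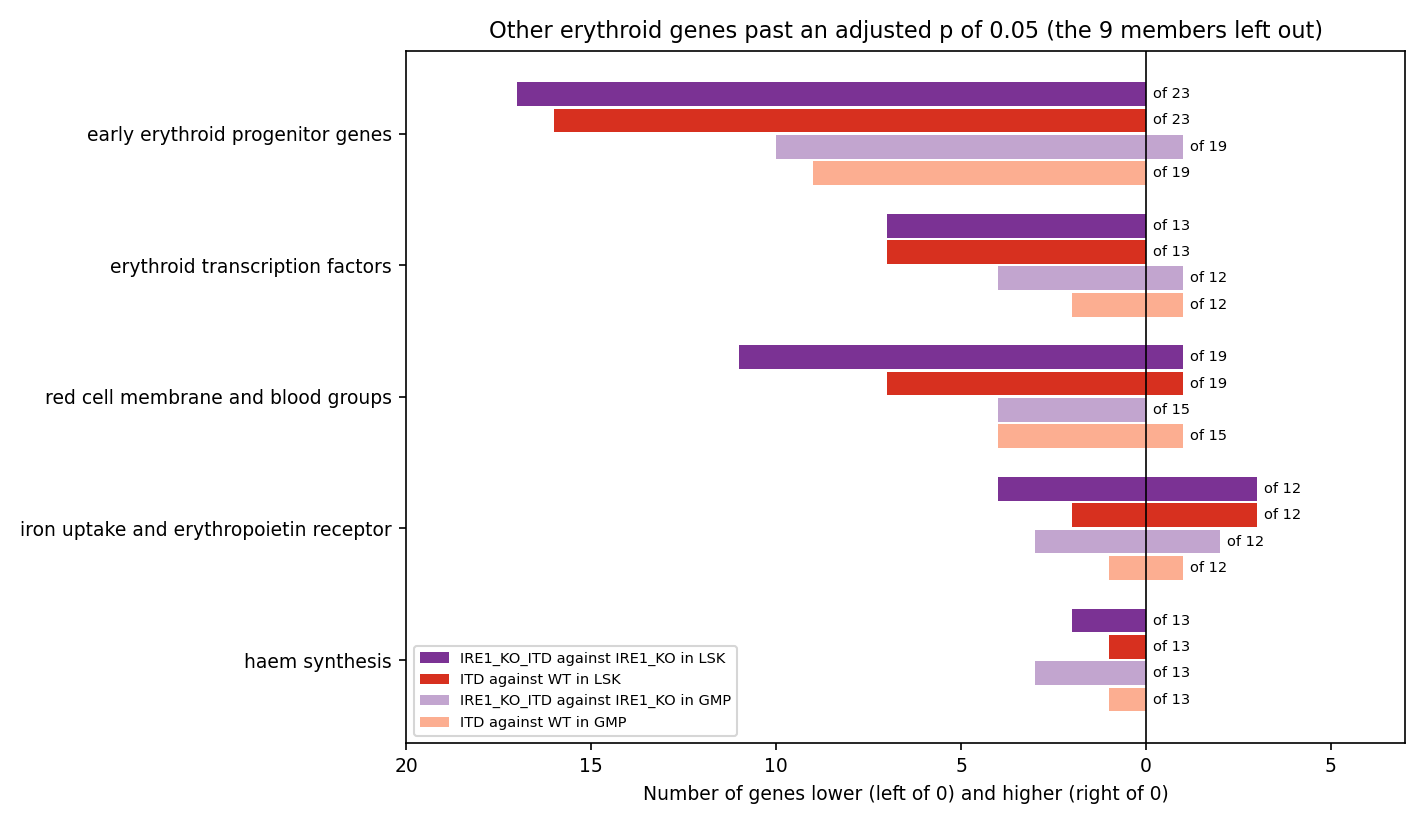
Number of genes lower (left of 0) and higher (right of 0) at an adjusted p under 0.05 in 5 lists of erythroid genes, with the 9 genes left out and the number tested beside each bar. Early progenitor genes have 16 of 23 and 17 of 23 lower in LSK cells, and haem synthesis genes at most 3 of 13 lower in any of the 4 comparisons.

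Of 5 other carbonic anhydrase genes tested in LSK cells, ITD against WT called 1 higher, Car12 (3.45 ± 0.30 FPKM in ITD and 1.20 ± 0.096 FPKM in WT; 1.02 ± 0.12, adjusted p = 0.000677), and 0 lower. In GMP 1 of 4 was lower, Car9 (-0.51 ± 0.13, adjusted p = 0.0322). Of the other claudins 1 of 4 was lower in LSK cells and 1 of 3 in GMP. Cldn15, the most abundant, had 27.3 ± 15 FPKM in ITD GMP and 68.3 ± 7.5 FPKM in WT GMP (-1.49 ± 0.41, adjusted p = 0.0419).

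Markers of B cells and, in LSK cells, of neutrophils were lower with Flt3-ITD as well. The summed level of 16 B cell genes was 43.9 to 115 FPKM in ITD LSK cells, against 200.2 to 409 FPKM in WT, and 13 of 14 tested were lower. Pax5, a defining B cell factor, was listed at 0 in all 3 ITD LSK and all 3 IRE1_KO_ITD LSK libraries, and is named after its values were seen. Between IRE1_KO_ITD and IRE1_KO the B cell sums were 32.4 to 38.2 FPKM and 291 to 359 FPKM in LSK cells, with 14 of 14 lower. Of the 16 B cell genes, 13 reached 1 FPKM in all 3 WT LSK libraries and 3 in all 3 ITD LSK libraries. For IRE1_KO and IRE1_KO_ITD LSK cells these were 14 and 1. B cell genes thus entered the tests mainly through libraries without Flt3-ITD, and a higher call was unlikely for them. The sum of 13 mature neutrophil genes was 493 to 2443 FPKM in ITD LSK cells and 4963 to 10048.0 FPKM in WT, with 10 of 13 lower. In GMP the neutrophil sums overlapped, at 2469.7 to 94862.5 FPKM in ITD and 42681 to 63237 FPKM in WT, and 0 of 13 passed. For IRE1_KO_ITD and IRE1_KO they were apart, at 119 to 400.2 FPKM and 4740.2 to 11802 FPKM in LSK cells (13 of 13 lower) and 1543 to 15201 FPKM and 17700 to 85384 FPKM in GMP (2 of 13 lower). The sum of 24 megakaryocyte genes, a lineage that shares Gata1, was 226 to 319 FPKM in ITD LSK cells and 324 to 361 FPKM in WT, with 6 of 19 lower and 1 higher. Pf4, a platelet chemokine gene, fell by 1.29 ± 0.42 in LSK cells (adjusted p = 0.0475) and by 2.84 ± 0.68 in GMP (adjusted p = 0.0259). Basophil, mast cell and eosinophil genes, where Gata1 also acts, summed to 145 to 632 FPKM in ITD GMP and 1101 to 2399.7 FPKM in WT GMP, with 5 of 15 lower, and to 206 to 306 FPKM in IRE1_KO_ITD GMP and 608 to 1456 FPKM in IRE1_KO GMP, with 8 of 15 lower. The sum of 15 genes of the macrophages that surround red cell precursors was 11.8 to 19.3 FPKM in ITD LSK cells and 16.0 to 29.8 FPKM in WT, with 1 of 11 lower and 1 higher. It was 9.75 to 11.9 FPKM in IRE1_KO_ITD LSK cells and 26.8 to 50.6 FPKM in IRE1_KO, with 8 of 11 lower and 1 higher. T and NK cell genes summed to 388 to 504 FPKM in ITD LSK cells and 328 to 342 FPKM in WT, with 0 of 4 passing. What part such cells have in the levels of the 9 genes was not tested.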

How the data were processed

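RNA-seq of sorted bone marrow cells gave 24 libraries in 8 groups of 3. The deposited files hold FPKM values per gene, which the authors made with STAR and Cufflinks on mm10, per the submitters' processing notes; versions are not given, and read depth is unknown. Per the labels' protocols libraries used SMART-Seq v4 and Nextera XT, while the series' design text names another kit. Differences were tested with limma 3.58.1 in R 4.3.3 on log2(FPKM + 1), with a mean-variance trend, for genes at 1 FPKM or more in 3 or more libraries of the fit. Each fit took the 12 libraries of LSK cells or of GMP, or all 24 where populations were compared. P-values were adjusted by Benjamini-Hochberg over all genes tested, with a threshold of 0.05, in 15 comparisons. This scale understates changes of low genes. The script was tested on simulated data. Alternatives were another pseudocount, no filter, 2 other scalings, sex, a replicate block and leaving out libraries.

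The 9 genes and all gene lists were chosen with earlier results of these data known. Named genes are the 9, up to 4 most abundant genes of each list, the 5 genes most like Gata1, Klf1 and Car1, and Flt3 and Ern1; others are named in the text as chosen after their values were seen. Same-numbered libraries deviated together, with every correlation over 0.1, only between ITD GMP and ITD LSK (0.105 to 0.198). Between GMP and LSK cells they were 0.0502 to 0.135 in WT and 0.0436 to 0.236 in IRE1_KO, where same-numbered libraries also had the same sex. Whether those are pairs is not known. Only the ITD libraries were treated as pairs, on the evidence of the data and in an alternative fit of the ITD libraries. The main fits of GMP against LSK cells and of the effect difference left all libraries unpaired. A result for 1 further gene is not reported here.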

Additional observations from a re-analysis of the deposited data

Results flagged for a closer look

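The effect of Flt3-ITD on Car2 differed between the populations by a test of that difference: ITD minus WT in GMP was lower than in LSK cells by a log2 difference of -1.42 ± 0.39 (SE, limma adjusted p = 0.023, 3 libraries per group). The difference within GMP was -3.04 and that within LSK cells was -1.62, and in both populations every ITD library was below every WT library. It did not pass in a fit of the 12 ITD and WT libraries alone (adjusted p = 0.072).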

How the results depend on the processing

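Of 2047 values of the 9 genes under alternative settings, 1979 kept their side of the threshold, 42 lost the call and 26 gained it. The sign changed in 87, none of them past the threshold in either setting. The number of the 9 genes called was 7 to 9 for ITD against WT, 7 to 9 for IRE1_KO_ITD against IRE1_KO and 7 to 8 for IRE1_KO_ITD against WT in LSK cells. In GMP it was 7, 8 to 9 and 7 to 9 for these. Larger relative changes were as follows. With a pseudocount of 0.1 it was 2 for IRE1_KO_ITD against ITD in LSK cells and 1 in GMP, 1 for GMP against LSK cells in WT and 2 in ITD. Quantile normalization gave 1 for IRE1_KO_ITD against ITD in LSK cells (Car2, 1.01, adjusted p = 0.0427). A fit of only the libraries compared gave 0 for the ITD effect in GMP minus that in LSK cells. Leaving out 1 library gave 0 to 2 for IRE1_KO against WT and for IRE1_KO_ITD against ITD in LSK cells, 0 to 1 for the interaction in LSK cells, 2 to 6 for GMP against LSK cells in WT, 1 to 3 in ITD, and 0 to 1 for the effect difference. The replicate block in the 6 ITD libraries gave 2 for GMP against LSK cells, and this alternative and the summed alpha copies were chosen after seeing the data. The cause of these changes was not tested.

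Sex as a covariate took the ITD against WT call from Hba-a1 in LSK cells (adjusted p = 0.126), and the IRE1_KO_ITD against IRE1_KO call from Car2 in LSK cells (adjusted p = 0.0682) and Hba-a2 in GMP (adjusted p = 0.0585), and the ITD libraries are of 1 sex. Over all genes, ITD against WT in LSK cells called 2650 genes, and 1384 with sex as a covariate; in GMP it called 1203, and 271 with sex, 509 in the libraries compared alone and 783 with the replicate block. Leaving out 1 library gave 1282 to 2599 genes for ITD against WT in LSK cells and 384 to 1609 in GMP, 1177 to 2342 for IRE1_KO_ITD against ITD in LSK cells (2418 with all) and 13 to 759 in GMP (206 with all), and 343 to 1549 for the interaction in LSK cells (830 with all, 82 with sex). In GMP it gave 27 to 45 for IRE1_KO against WT (60 with all), 708 to 1176 for IRE1_KO_ITD against IRE1_KO (1459 with all) and 0 to 91 for the interaction (0 with all). Other scalings moved the median of all genes by up to -0.215 on the log2 scale (IRE1_KO against WT in LSK cells). The share of calls that were lower was 32.8% for ITD against WT in LSK cells, against 47.3% with quantile normalization and 51.2% with size factors, and 31.1% in GMP, against 49.5% and 50.4%.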
